A study of Mus musculus with 10 samples.

Results

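The proteasome subunit genes of mouse are described here in cultured cortical neurons that received a virus carrying the histone variant H2BE, the neurotrophin BDNF, both, or neither. Members were all genes of the normalized count table whose symbol begins with Psm, followed by a letter from a to g and a number, without pseudogenes. This gave 48 members among the 21862 genes in that table. They are 18 genes of the core particle, 17 of the regulatory particle, 5 activators, 1 inhibitor and 7 assembly chaperones.

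The proteasome degrades proteins that carry ubiquitin chains. Its core particle is a barrel of stacked rings, with outer rings of alpha subunits that gate the entrance and inner rings of beta subunits that hold the peptidase sites. The regulatory particle caps the barrel: a base with a ring of ATPases unfolds substrates, and a lid removes ubiquitin. Other caps, the activators, open the gate without the base, and in neurons the proteasome also turns over synaptic proteins.

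Polyadenylated RNA was sequenced from primary cortical neurons of wild-type C57BL/6J embryos of stage E16.5. All cultures were given 0.5 µM AraC, an inhibitor of dividing cells, at 3 to 4 days in vitro. All then received a lentivirus, either a virus that expresses H2BE from an unnamed constitutively active promoter or a control virus, and RNA was taken 24 h after BDNF was added or left out. The 4 groups are H2BE+BDNF (H2BE virus with BDNF, 2 libraries), H2BE (H2BE virus alone, 2 libraries), BDNF (control virus with BDNF, 3 libraries) and Control (control virus alone, 3 libraries). The BDNF concentration is not given in the sources used here. Replicate 3 of BDNF and replicate 3 of Control exceeded replicate 1 of their group at 0 of 48526 genes and hold 61.9% and 73.7% of its counts, so each was counted together with replicate 1 as 1 sample. Every group therefore has n = 2, and the tests used 8 distinct libraries. Nothing in the labels says that the libraries of a group came from separate cultures, so each p-value speaks only to the spread among these libraries, which may be technical.

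Libraries held 5058074 to 14142545 counts. In the deepest 3 counts correspond to 0.2102 CPM and in the shallowest to 0.5944 CPM (CPM, counts scaled to a common library size, here with TMM factors). The gene for H2BE, H2bc21, lay at 32.1 to 35.2 CPM in H2BE+BDNF, 35.7 to 42.7 CPM in H2BE, 3.70 to 4.10 CPM in BDNF and 5.18 to 5.49 CPM in Control libraries. The 9 neuron markers sum to 6561 to 6565 CPM in H2BE+BDNF, 6566 to 6652 in H2BE, 6678 to 7073 in BDNF and 6227 to 6390 in Control libraries. They went in both directions with BDNF: Map2 and Gad2 rose under both viruses, while Neurod6, Rbfox3, Tubb3 and Slc17a7 fell under both, and Syt1 fell under the H2BE virus. The 12 microglia markers sum to 5.94 to 28.9 CPM over all libraries, and the microglial gene Tmem119 was at 0 counts in BDNF, H2BE and Control libraries.

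Per kilobase of principal transcript, the rings of the core had a higher mean level than the regulatory particle in every group. The 14 constitutive ring genes averaged 100.3 ± 1.69 CPM per kilobase in H2BE+BDNF, 81.4 ± 2.47 in H2BE, 93.3 ± 3.25 in BDNF and 94.2 ± 2.87 in Control cultures (SD, n = 2 each). The 17 regulatory genes averaged 85.5 ± 2.35, 68.2 ± 1.61, 81.7 ± 0.269 and 75.5 ± 1.17 CPM per kilobase in the same groups. In both particles the means were lowest in the H2BE group and highest in the H2BE+BDNF group. By median, the base lay at 97.8 CPM per kilobase in H2BE+BDNF and 84.8 in Control cultures, and the lid at 72.8 and 66.9. The alpha ring lay at 91.1 and 91.97 and the beta ring at 90.3 and 86.7, so the base was not below the rings in every group. The 7 assembly chaperones were expressed at a far lower level, with a median of 16.8 CPM per kilobase in Control cultures against 91.97 for the alpha ring and 86.7 for the beta ring.

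Within a particle the levels of the subunits were unequal. Among the 14 constitutive ring genes, Psmb6, which holds the caspase-like peptidase site, was the highest at 167 ± 0.201 CPM per kilobase in H2BE+BDNF, 140.2 ± 1.17 in H2BE, 159.9 ± 17.5 in BDNF and 160.1 ± 3.38 in Control cultures. The lowest was the alpha subunit gene Psma2, at 36.6 ± 0.104, 30.8 ± 0.389, 35.9 ± 0.291 and 34.5 ± 3.08 CPM per kilobase. This rank depends on the transcript length used, 2911 bases for Psma2. Without division by length, Psma2 lay at 100.3 CPM in Control cultures, above Psma5 (1239 bases) at 60.3 CPM. In the regulatory particle Psmd2, a base scaffold that docks ubiquitin receptors, was highest at 146 ± 9.15, 117 ± 2.66, 147 ± 3.72 and 123 ± 0.184 CPM per kilobase, and the lid gene Psmd11 was lowest at 36.4 ± 1.74, 27.2 ± 1.61, 35.2 ± 2.2 and 28.7 ± 1.07. The highest member exceeded the lowest by a ratio of 4.46 to 4.65 among the constitutive ring genes and 4.00 to 4.31 in the regulatory particle, whichever group was measured.

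**Figure D1:**
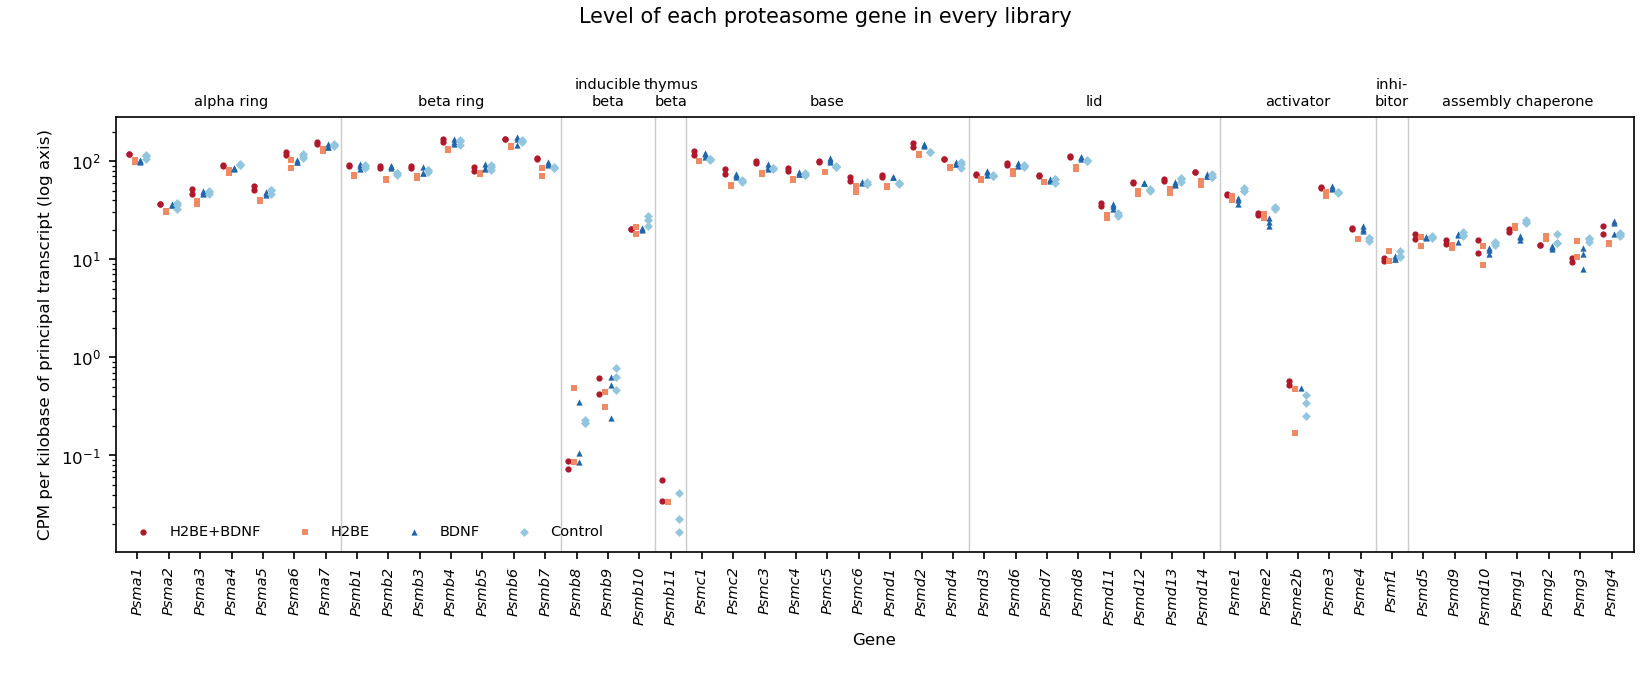
Each point is a library, with the level of a member in CPM per kilobase of principal transcript on a log axis and the members grouped by class along the horizontal axis; libraries with 0 counts are not drawn. The ring, base and lid genes lie between about 27.2 and 166.8 as group means, the chaperones lower, and Psmb8, Psmb9, Psmb11 and Psme2b below 1.

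The interferon-inducible beta subunits, which replace the constitutive catalytic ones to form the immunoproteasome, were at a few counts per library apart from Psmb10. Psmb8, the inducible counterpart of Psmb5, had 1 and 1 counts in the H2BE+BDNF libraries, 1 and 4 in H2BE, 2, 7 and 1 in BDNF and 5, 2 and 4 in Control. Over the 8 distinct libraries it had 23 counts (95% Poisson interval 14.6 to 34.5), which per length is 0.235% of Psmb5 (0.149% to 0.353%). Psmb9, the counterpart of Psmb6, had 7 and 4 counts in H2BE+BDNF, 3 and 3 in H2BE, 10, 4 and 5 in BDNF and 9, 6 and 9 in Control libraries, 46 in all, or 0.301% of Psmb6 per length (0.22% to 0.402%). No library had more than 10 counts of either gene, too few to order the groups.

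Psmb10, the inducible counterpart of the trypsin-like subunit Psmb7, was the exception, with 1993 counts, or 23.3% of Psmb7 per length (22.2% to 24.3%). It lay at 26.6 and 26.6 CPM in H2BE+BDNF, 27.9 and 23.8 CPM in H2BE, 27.1, 26.1 and 26.5 CPM in BDNF and 33, 28.9 and 35.8 CPM in Control libraries. Control libraries were the highest, and the BDNF libraries did not overlap with them, but no comparison of this gene passed the test. The thymus form Psmb11 had 6 counts over the distinct libraries and Psme2b, a near copy of the activator gene Psme2, had 20, so counts of Psme2 may be split between both copies. These intervals cover counting error only. Psmb8, Psmb9, Psmb11 and Psme2b did not pass the filter on low counts, and the other 44 members were tested.

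Summed over its genes, the core was lowest with the H2BE virus alone. The 14 ring genes sum to 1629 and 1671 CPM in H2BE+BDNF, 1308 and 1357 CPM in H2BE, 1611, 1502 and 1534 CPM in BDNF, and 1570, 1513 and 1611 CPM in Control libraries, the last of 3 values being the nested replicate. The H2BE libraries lie below all others, the H2BE+BDNF libraries above all others, and BDNF and Control libraries overlap. The 17 regulatory genes sum to 2663 and 2772 CPM in H2BE+BDNF, 2127 and 2203 CPM in H2BE, 2653, 2610 and 2564 CPM in BDNF, and 2388, 2362 and 2427 CPM in Control libraries. Here BDNF and Control libraries are apart as well, with every BDNF library higher.

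The ratio of regulatory to core RNA was lowest in Control and highest in BDNF cultures. It averaged 1.647 ± 0.017 in H2BE+BDNF, 1.624 ± 0.00212 in H2BE, 1.699 ± 0.0555 in BDNF and 1.537 ± 0.0336 in Control cultures (SD, n = 2 each). The Control libraries, at 1.521, 1.561 and 1.506, lie below every library of the other groups. All 48 members took up 0.496% ± 0.00686 of the counts in H2BE+BDNF, 0.405% ± 0.0099 in H2BE, 0.466% ± 0.00792 in BDNF and 0.459% ± 0.00979 in Control cultures. In bulk RNA, fewer cells of a type and less RNA per cell cannot be told apart.

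**Figure D2:**
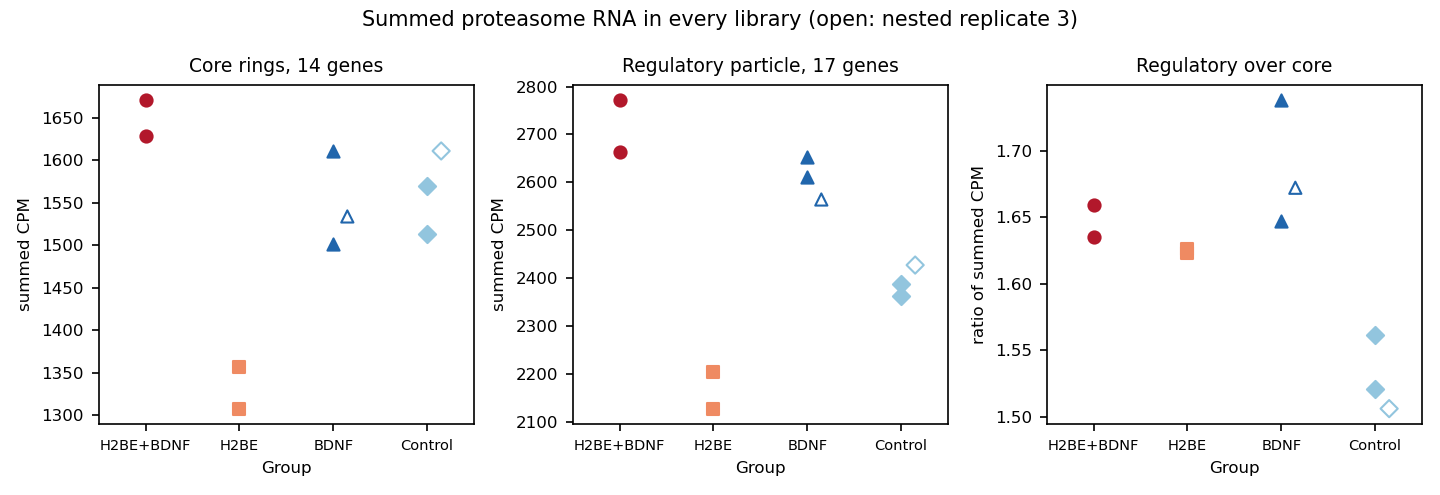
Each point is a library; the panels show the summed CPM of the 14 core ring genes, the summed CPM of the 17 regulatory genes and the ratio of the sums, with open symbols for the nested replicates and axes that do not start at 0. The H2BE libraries are lowest in both sums, and the Control libraries are lowest in the ratio.

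BDNF against Control asks what BDNF did under the control virus. Some regulatory genes and no ring genes were called: 7 of 17 regulatory genes passed the test upward and 0 downward, with a median log2 fold change of 0.09. Of the 14 ring genes 0 passed in either direction, with a median of 0.01. Values above 0 were found in 16 regulatory genes and in 9 ring genes, and a difference between the particles was not tested. The correction for length and GC content described with the virus comparisons brought 3 ring genes past the threshold. Without it 1 ring gene was higher and 1 lower at an unadjusted p under 0.05, and DESeq2 called 0. At this unadjusted threshold 2838 of all genes tested were higher and 2684 lower. Over all members 8 rose and 3 fell, and DESeq2 called 5 upward, 4 of them regulatory genes. Of the 13452 genes tested edgeR called 31.4%, 16.8% upward and 14.6% downward, with a median of −0.01. The share of all members that edgeR called was near that of all genes. The rises were small, from 0.17 to 0.37 on the log2 scale.

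Both parts of the regulatory particle held genes that passed. Of the 9 base genes 5 rose, with a median log2 fold change of 0.17. They were the ATPases Psmc1, Psmc2 and Psmc5 and the scaffolds Psmd1 and Psmd2. The ATPase calls were lost with DESeq2's Wald test, and also with replicate 3 in place of replicate 1 in BDNF and Control. The calls of Psmd1 and Psmd2 held in both. Of the 8 lid genes, Psmd11 and Psmd12 rose, and the median was 0.07. DESeq2's Wald test called 2 genes in each part, and a difference between base and lid was not tested. Both rings of the core lay near 0, the alpha ring at a median of −0.05 and the beta ring at 0.06.

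Psmd2 (ENSMUSG00000006998.15; chr16:20651652-20663414, plus strand, mm10) had 430.3, 442 and 422 CPM in the BDNF libraries, against 364, 366 and 366 CPM in Control. Every BDNF library lay above every Control library, and the log2 fold change was 0.25 ± 0.05 (SE), adjusted p = 0.00213 with edgeR's quasi-likelihood test and Benjamini-Hochberg adjustment over all genes. Psmd11 (ENSMUSG00000017428.16; chr11:80428615-80473248, plus strand), a lid subunit that clamps the lid to the core, had 99.6, 105 and 92 CPM in BDNF, against 79.4, 83.8 and 79.7 CPM in Control libraries. The groups did not overlap, with a log2 fold change of 0.32 ± 0.07 (SE), adjusted p = 0.00265 in the same test. Without Control replicate 1 the adjusted p of Psmd11 was 0.0734, and over the 16 alternatives it ranged from 0.000574 to this value.

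The activators went in different directions. Psme4 (ENSMUSG00000040850.17; chr11:30771726-30880361, plus strand), a large single-chain cap of the core, had 131, 140.4 and 127 CPM in BDNF, against 107, 99 and 106 CPM in Control libraries. All BDNF libraries were higher, and its log2 fold change of 0.37 ± 0.07 (SE), adjusted p = 0.000406 was the largest rise among the tested members. Psme3, the nuclear activator related to Psme1 and Psme2, had 147, 138 and 142 CPM in BDNF, against 129, 128 and 126 CPM in Control libraries. Its groups did not overlap, but it did not pass the test (log2 fold change 0.14 ± 0.06 (SE), adjusted p = 0.101).

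Psme1 and Psme2 encode the subunits of the interferon-inducible activator ring, and both fell. Psme1 (ENSMUSG00000022216.16; chr14:55578123-55581529, plus strand) had 46.4, 40.7 and 44.5 CPM in BDNF, against 55.7, 55.1 and 59.5 CPM in Control libraries, a log2 fold change of −0.36 ± 0.09 (SE), adjusted p = 0.0052. Psme2 (ENSMUSG00000079197.10; chr14:55587441-55591113, minus strand) had 23.3, 25.5 and 21.2 CPM in BDNF, against 31.9, 31.4 and 32.8 CPM in Control libraries, a log2 fold change of −0.39 ± 0.10 (SE), adjusted p = 0.00729. In both genes every BDNF library lay below every Control library. Without Control replicate 1 neither passed, with adjusted p up to 0.0558 for Psme1 and 0.101 for Psme2 over the 16 alternatives, where they went down to 0.000215 and 0.000209. Psme2 did not pass with DESeq2's Wald test either. Psmf1, an inhibitor that binds the core, overlapped between 38.2, 40.9 and 38 CPM in BDNF and 41.4, 46.2 and 40.6 CPM in Control libraries and did not pass.

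The assembly chaperones had the lowest median of any class, −0.28. Psmg1 (ENSMUSG00000022913.14; chr16:95979933-95990960, minus strand), which with Psmg2 guides the formation of the alpha ring, had 17.8, 16.3 and 17.9 CPM in BDNF, against 24.4, 26.3 and 25 CPM in Control libraries. The groups were well apart, and the log2 fold change of −0.57 ± 0.11 (SE), adjusted p = 0.00118 was the largest among the tested members in this comparison. The other 6 chaperones did not pass. Psmg2 (−0.30), Psmg3 (−0.35) and Psmd10 (−0.28) had negative values, and Psmg4 (0.18) a positive one.

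Over all members 12 had every BDNF library above every Control library and 10 had every one below, against 28.8% and 27.6% of all genes tested. Among ring genes the counts were 2 above and 3 below, and among regulatory genes 8 above and 0 below. The calls rest on few libraries. Without Control replicate 1 only 2 members were called upward and 1 downward, and without Control replicate 2 there were 3 upward. Psmd2, Psme4 and Psmg1 kept their calls in all 16 alternatives.

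Of the 11 members called, Psme4 and Psmd12 also carry a core of the antioxidant response element in their promoter. This element is bound by NRF factors such as Nfe2l1, a transcriptional activator of proteasome genes. The element was searched as TGACNNNGC on both strands, from 250 bases before to 50 bases after the RefSeq start of each gene (build GRCm38.p6), and the capitals below mark the match.

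Psme4, chr11:30771525-30771824, plus strand: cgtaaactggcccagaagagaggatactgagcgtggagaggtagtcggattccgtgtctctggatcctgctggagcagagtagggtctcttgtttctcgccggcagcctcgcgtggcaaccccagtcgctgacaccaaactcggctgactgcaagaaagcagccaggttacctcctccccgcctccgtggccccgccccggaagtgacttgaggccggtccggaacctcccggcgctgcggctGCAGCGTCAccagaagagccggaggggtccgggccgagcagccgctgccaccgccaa

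Psmd12, chr11:107479278-107479577, plus strand: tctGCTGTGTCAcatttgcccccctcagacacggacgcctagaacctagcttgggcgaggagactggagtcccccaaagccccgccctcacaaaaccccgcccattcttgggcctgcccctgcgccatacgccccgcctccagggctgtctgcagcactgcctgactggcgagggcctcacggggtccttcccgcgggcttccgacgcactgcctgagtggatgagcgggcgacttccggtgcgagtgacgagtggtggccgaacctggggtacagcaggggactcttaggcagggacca

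The match spans bases −7 to 2 around the start of Psme4 and bases −247 to −239 before that of Psmd12, on the minus strand in both. Psmd12, a lid scaffold, had 114, 114 and 113 CPM in BDNF, against 98.1, 94 and 96.3 CPM in Control libraries, with no overlap and a log2 fold change of 0.24 ± 0.06 (SE), adjusted p = 0.0101. A match is a description of the letters and not a site of binding. Of the 41 members with a RefSeq promoter 6 held the element. Counted by promoter, 6 of their 44 promoters held it, or 13.6%, against 12.4% of the 32851 mouse promoters in the table. The other members with it were Psmb5, Psmb6, Psmc6 and Psmd9, which were not called in this comparison. The letters CCAAT on either strand, which overlapped none of these matches, were present in 14 of the 41 members. By promoter this was 14 of 44, or 31.8%, against 37.4% of all promoters. Of the 7 alpha ring genes 5 held them, of the 4 matched beta ring genes 1, and of the 14 matched regulatory genes 4.

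H2BE+BDNF against H2BE asks the same of BDNF under the H2BE virus. Its libraries entered the previous comparison only through the shared scaling and spread. Here the core and the regulatory particle rose together: 13 of 14 ring genes and 16 of 17 regulatory genes passed upward, and 0 of either downward. DESeq2 called fewer, 7 ring genes and 15 regulatory genes upward, and 0 of either downward. Its share over all genes is not given here. At an unadjusted p under 0.05, 13 ring genes and 17 regulatory genes were higher and 0 lower, where 2549 of the 13452 genes tested were higher and 2394 lower. Over all genes edgeR called 25.8%, with 13.4% upward. The median log2 fold change was 0.32 for the ring genes and 0.34 for the regulatory genes, against 0.00 for all genes tested. Together with the activators Psme3 and Psme4 this made 31 of the 44 tested members called upward. Only Psmb5, the chymotrypsin-like catalytic subunit, and the lid gene Psmd3 did not pass among the ring and regulatory genes, Psmd3 with a log2 fold change of 0.17 ± 0.07 (SE), adjusted p = 0.063.

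The libraries were fully apart for both particles. In all 14 ring genes and all 17 regulatory genes both H2BE+BDNF libraries lay above both H2BE libraries, which held for 32.7% of all genes. Of all 44 tested members, 36 had this order and 3 the opposite one.

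The smallest adjusted p belonged to Psmc2 (ENSMUSG00000028932.7; chr5:21785283-21803787, plus strand), an ATPase of the base. It had 133 and 148 CPM in H2BE+BDNF, against 102 and 100.3 CPM in H2BE libraries, a log2 fold change of 0.46 ± 0.07 (SE), adjusted p = 0.000149. Psmd8 (ENSMUSG00000030591.17; chr7:29174188-29180701, minus strand), a lid subunit that completes lid assembly, had 169.8 and 174 CPM in H2BE+BDNF, against 128 and 134 CPM in H2BE libraries (log2 fold change 0.39 ± 0.06 (SE), adjusted p = 0.000175). In neither gene did the groups overlap, and the H2BE+BDNF libraries of Psmc2 were less alike than those of Psmd8.

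Psmb7 (ENSMUSG00000026750.6; chr2:38588036-38644087, minus strand), the trypsin-like catalytic subunit, had 123 and 126 CPM in H2BE+BDNF, against 82.2 and 98.3 CPM in H2BE libraries. The H2BE libraries were less alike than for the genes above, and the log2 fold change of 0.47 ± 0.08 (SE), adjusted p = 0.000449 was the largest of any member. The scaffolds of the base rose in parallel. Psmd1 had 225 and 217 CPM in H2BE+BDNF, against 170.1 and 174 CPM in H2BE libraries (0.35 ± 0.06 (SE), adjusted p = 0.000245), and Psmd2 had 412 and 450.5 CPM, against 342 and 353 CPM (0.31 ± 0.05 (SE), adjusted p = 0.000583). Neither gene had overlapping groups.

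Psmd11 had 100.2 and 107 CPM in H2BE+BDNF, against 74.2 and 80.7 CPM in H2BE libraries, and its log2 fold change was 0.42 ± 0.08 (SE), adjusted p = 0.000717. Of the catalytic subunits, Psmb6 had 133 and 133 CPM in H2BE+BDNF, against 111 and 112 CPM in H2BE libraries and passed (0.25 ± 0.08 (SE), adjusted p = 0.0334). Psmb5 had 70.6 and 78.5 CPM in H2BE+BDNF, against 68.7 and 66 CPM in H2BE libraries. Its libraries did not overlap, but its value of 0.14 on the log2 scale did not pass (adjusted p = 0.287).

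Of the genes outside the particles, the activators Psme4 and Psme3 rose. Psme4 had 135 and 131 CPM in H2BE+BDNF, against 104 and 104 CPM in H2BE libraries (0.35 ± 0.07 (SE), adjusted p = 0.00172), and Psme3 had 145 and 142 CPM, against 118 and 128 CPM (0.23 ± 0.07 (SE), adjusted p = 0.0194). Neither gene had overlapping groups. Psme1 had 50.8 and 50.2 CPM in H2BE+BDNF, against 48.9 and 44.6 CPM in H2BE libraries, and Psme2 had 27.3 and 28.1 CPM, against 25.4 and 27.7 CPM. Neither passed, at log2 fold changes of 0.10 and 0.06. The inhibitor Psmf1 had 39 and 36.8 CPM in H2BE+BDNF, against 36.9 and 46 CPM in H2BE libraries, with overlapping groups, and 0 of the 7 chaperones passed (1 was higher at an unadjusted p under 0.05).

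The count depends on the libraries more than the direction does. Without H2BE replicate 2 it was 15, without H2BE+BDNF replicate 3 it was 20, and the highest count with a library left out was 32. DESeq2 called 23, of which 7 were ring genes and 15 regulatory genes. Of the 31 calls 15 held in all 16 alternatives.

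**Figure D3:**
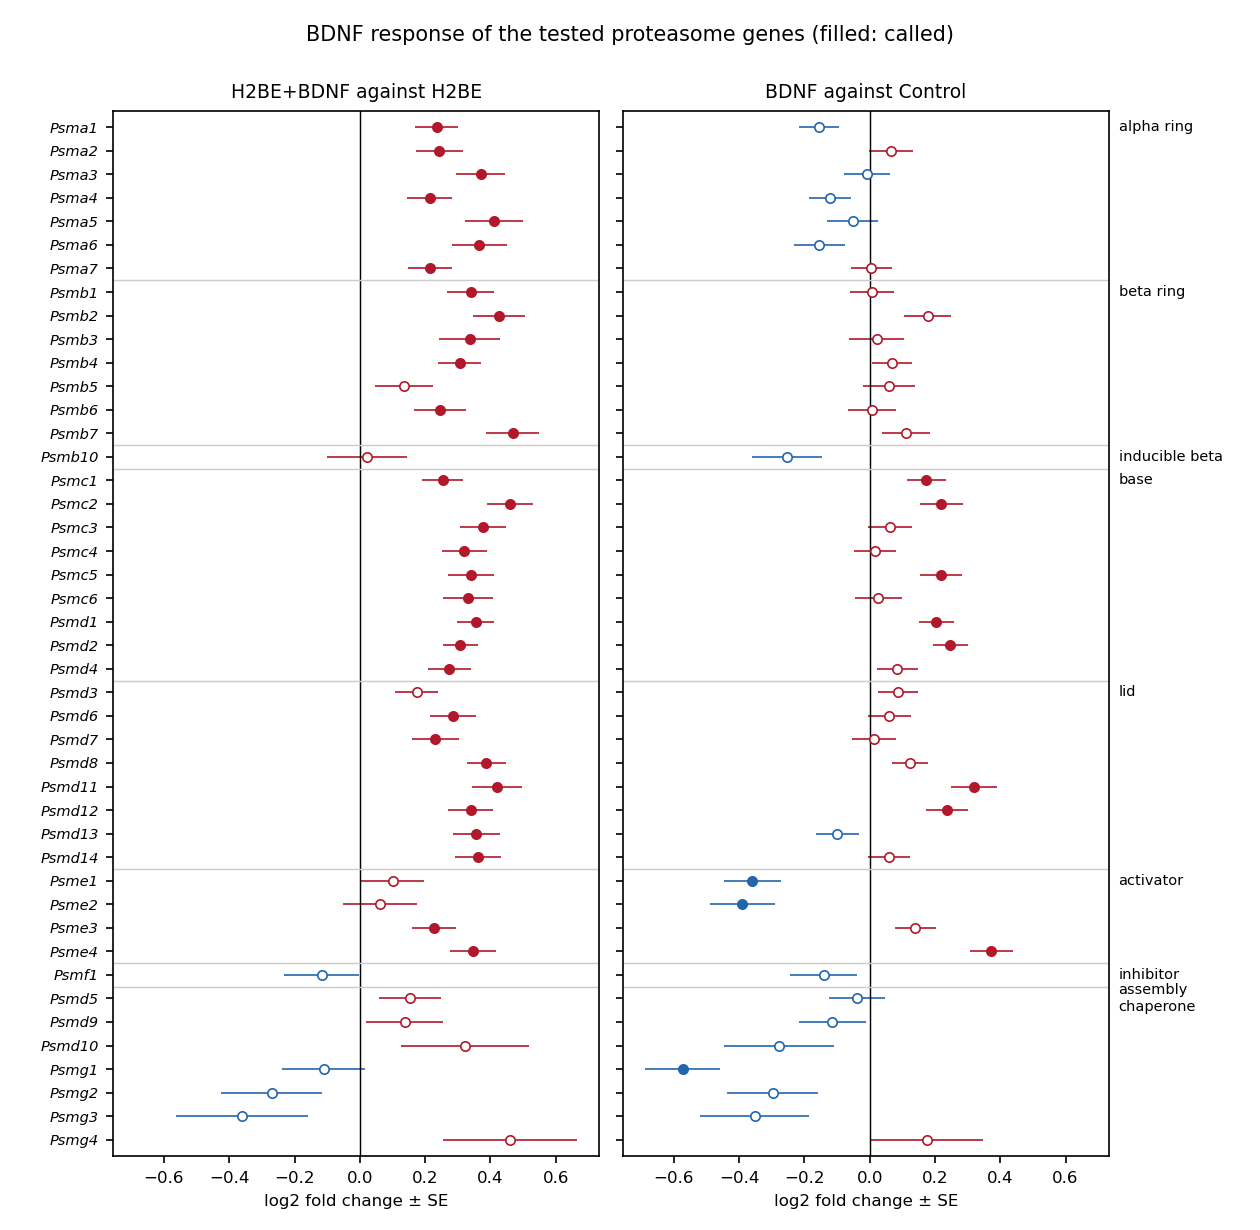
Points give the log2 fold change of each tested member and bars its SE, for H2BE+BDNF against H2BE on the left and BDNF against Control on the right; filled points passed at an adjusted p under 0.05, red is positive and blue negative. On the left 13 of 14 ring genes and 16 of 17 regulatory genes are filled, and on the right 0 and 7.

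Set side by side, regulatory genes were called upward with BDNF under both viruses and ring genes under the H2BE virus, but this pattern of calls is not itself a test of a difference. All 8 members called upward by BDNF against Control were also among the 31 called upward in H2BE+BDNF against H2BE, which is 8 of 8 in the smaller list and 8 of 31 in the larger. The larger list holds 31 of the 44 tested members, so a large overlap follows from its size. No share of all genes called upward in both is given here, and the overlap was not tested. In the test of the difference between the responses, 3 of 44 members passed, all with the larger response under the H2BE virus, where 1.15% of all genes were called, 0.327% in this direction. At an unadjusted p under 0.05 there were 25 members with a larger response and 0 with a smaller one. Of the 13452 genes tested, 1036 had a larger and 1212 a smaller response at this threshold. The median difference was 0.32 for the ring genes and 0.22 for the regulatory genes, against −0.01 for all genes. It was above 0 in all 14 ring genes and all 17 regulatory genes.

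The 3 members are a lid gene and a pair of alpha ring genes. Psmd13 (ENSMUSG00000025487.15; chr7:140881968-140898643, plus strand), a structural lid subunit, had 130.1 and 124 CPM in H2BE+BDNF, 95.2 and 104 CPM in H2BE, 122, 115 and 115 CPM in BDNF and 130.1, 121 and 133 CPM in Control libraries. It was lowest in H2BE, with BDNF and Control overlapping, and the responses differed by 0.46 ± 0.10 (SE), adjusted p = 0.0431. Psma6 (ENSMUSG00000021024.14; chr12:55384222-55418454, plus strand) had 130.5 and 121 CPM in H2BE+BDNF, 88.7 and 108 CPM in H2BE, 108, 101 and 103 CPM in BDNF and 118, 112 and 124 CPM in Control libraries, a difference of 0.52 ± 0.12 (SE), adjusted p = 0.0444. BDNF libraries were lower than Control ones there, and H2BE+BDNF libraries higher than H2BE ones.

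Psma1 (ENSMUSG00000030751.18; chr7:114264606-114276118, minus strand) had 140.5 and 141 CPM in H2BE+BDNF, 117 and 122 CPM in H2BE, 122, 119 and 124 CPM in BDNF and 137, 127 and 137 CPM in Control libraries. Its order was the same as that of Psma6, and the difference was 0.39 ± 0.09 (SE), adjusted p = 0.0485. All 3 calls are close to the threshold. None of them passed without Control replicate 1, Control replicate 2, H2BE replicate 2, or either H2BE+BDNF replicate, and 1 member passed without H2BE replicate 3. Without BDNF replicate 1 there were 12. The activator genes Psme1 (0.46) and Psme2 (0.45), which fell in 1 comparison and not in the other, did not pass for the difference (adjusted p = 0.103 and 0.153).

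H2BE against Control asks what the H2BE virus did without BDNF. Members lay lower with the H2BE virus, but few passed: 0 rose and 3 fell, where 2.13% of all genes were called, 1.33% upward and 0.803% downward. The median log2 fold change was −0.21 for the ring genes and −0.13 for the regulatory genes, against 0.00 for all genes. At an unadjusted p under 0.05 there were 23 members lower and 0 higher, 10 of them ring genes and 8 regulatory genes. Of the 13452 genes tested, 1230 were lower and 1215 higher at this threshold. In 34 of 44 members both H2BE libraries lay below all Control libraries, which held for 23.6% of all genes. The ring genes did so in all 14 cases and the regulatory genes in 13 of 17.

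Psmd13 fell by 0.35 on the log2 scale in H2BE against Control (adjusted p = 0.0238). Psma3 (ENSMUSG00000060073.9; chr12:70974621-70996347, plus strand), an alpha ring subunit, had 112 and 104 CPM in H2BE, against 137, 133 and 140.4 CPM in Control libraries (log2 fold change −0.31 ± 0.07 (SE), adjusted p = 0.0407). Psmb1 (ENSMUSG00000014769.9; chr17:15475021-15499751, minus strand), a beta subunit without a peptidase site, had 123 and 127 CPM in H2BE, against 156, 149 and 159.6 CPM in Control libraries (−0.29 ± 0.07 (SE), adjusted p = 0.0467). In all 3 genes the H2BE libraries lay below the Control libraries. The count of 3 became 0 without Control replicate 1, without H2BE replicate 2 and without H2BE replicate 3, 1 without Control replicate 2, and 7 without either BDNF replicate, which enters this comparison only through the shared scaling and spread.

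H2BE+BDNF against BDNF asks what the H2BE virus did in the presence of BDNF. With edgeR 0 of 44 members passed in either direction, where it called 0.0223% of all genes, 0.0149% upward and 0.00743% downward. DESeq2, which gave no adjusted p to 12 of the members, called 0 too. At an unadjusted p under 0.05 there were 8 members higher and 0 lower, 4 of them ring genes and 2 regulatory genes. Of the 13452 genes tested, 636 were higher and 897 lower at this threshold. The median log2 fold change was 0.07 for the ring genes and 0.05 for the regulatory genes. In 20 members both H2BE+BDNF libraries lay above all BDNF libraries, against 15% of all genes, and in 0 members below, against 19.1%. Without BDNF replicate 1 there were 3 members called upward.

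These comparisons share libraries. The H2BE libraries enter both H2BE+BDNF against H2BE and H2BE against Control, and the difference between the responses holds all 4 groups. A low level in the H2BE libraries raises the first value and lowers the second. As a median deviation from the members' means, the H2BE libraries lay at −0.20 and −0.15 on the log2 scale, the H2BE+BDNF libraries at 0.10 and 0.13, the BDNF libraries at 0.09 and 0.01, and the Control libraries at 0.02 and −0.005.

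**Figure D4:**
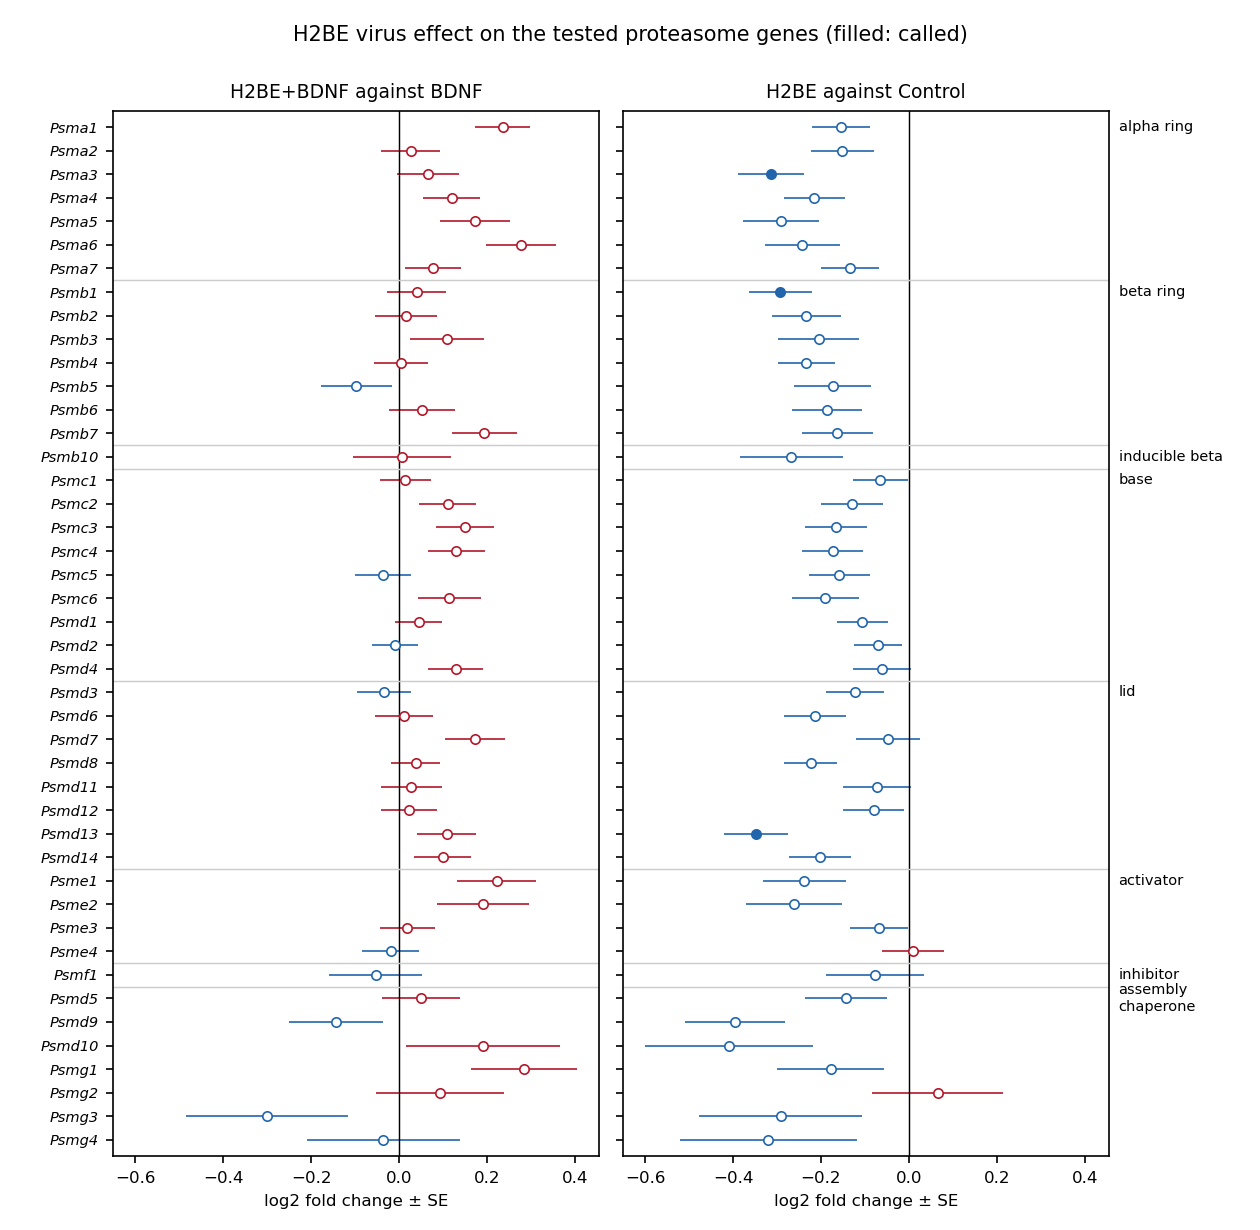
Points give the log2 fold change of each tested member and bars its SE, for H2BE+BDNF against BDNF on the left and H2BE against Control on the right; filled points passed at an adjusted p under 0.05, red is positive and blue negative. On the right 42 of 44 members lie left of 0 and 3 are filled, and on the left 0 are filled.

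Fold changes varied weakly with the exonic length of the gene in some comparisons, and hardly in H2BE+BDNF against H2BE. Members are shorter than the typical gene, with a median exonic length of 2804 bases (2335 for ring genes and 2820 for regulatory genes) against 4557 for all genes tested. Over all genes the correlation of fold change with log2 length was 0.135 for BDNF against Control, −0.039 for H2BE+BDNF against H2BE, 0.191 for H2BE against Control and −0.231 for the difference between the responses. Over the 44 members it was 0.279, 0.02, 0.276 and −0.35. These are descriptions over genes, which share the libraries.

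A correction for length and GC content gave as many calls for the BDNF response under the H2BE virus, while no member was called in H2BE against Control or for the difference. For H2BE+BDNF against H2BE it gave 31 members upward, 12 ring genes and 17 regulatory genes, with medians of 0.29 and 0.30. For BDNF against Control it gave 13 upward and 3 downward, with 3 ring genes (Psmb2, Psmb4 and Psmb5) and 8 regulatory genes upward, at medians of 0.07 and 0.15. For H2BE against Control 0 members passed, with medians of −0.10 for both particles. For the difference between the responses 0 passed, with medians of 0.22 and 0.13. The share called and the median over all genes with this correction are not given here, so these counts cannot be set against all genes.

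**Figure D5:**
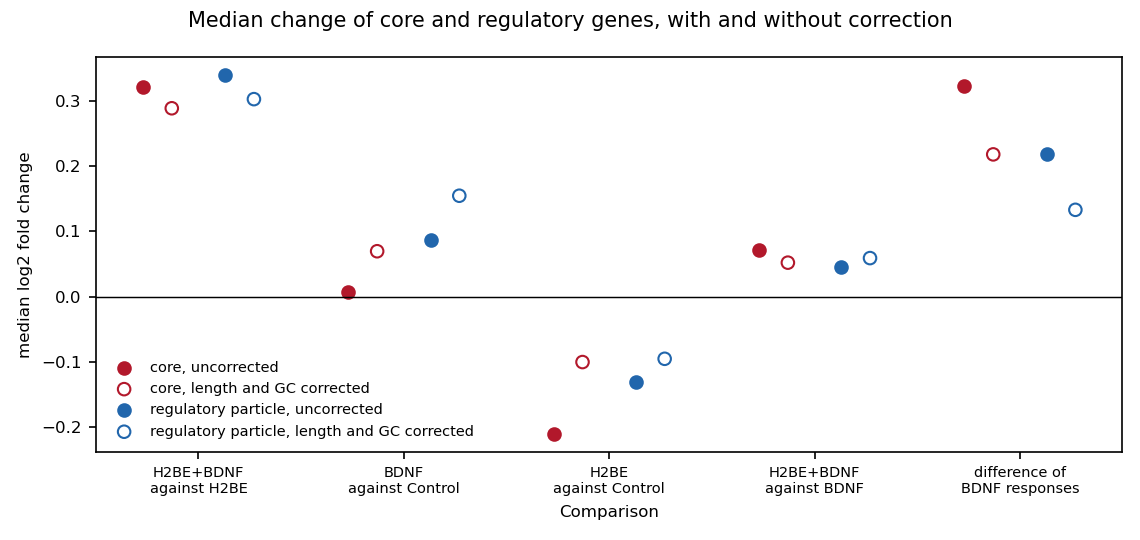
The vertical axis gives the median log2 fold change of the 14 ring genes (red) and the 17 regulatory genes (blue) in each comparison, without (filled) and with (open) the correction for length and GC content. The medians of H2BE+BDNF against H2BE change little, and those of H2BE against Control and of the difference move toward 0.

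Other genes of the ubiquitin and proteasome pathway were taken from a list of 28 genes, of which 27 were tested. In BDNF against Control edgeR called 16.8% of all genes upward and 14.6% downward, and the median log2 fold change of the 27 was 0.09. Of these 27, 8 rose and 0 fell, or 7 and 0 with DESeq2. They include the ubiquitin-selective segregase Vcp (0.26 ± 0.05 (SE), adjusted p = 0.000841), its cofactor Nploc4 (0.28 ± 0.07, adjusted p = 0.00596), the proteasome-associated thioredoxin Txnl1 (0.23 ± 0.06, adjusted p = 0.00829) and the transcription factor Nfe2l1 (0.30 ± 0.06, adjusted p = 0.000939). Nfe2l1 averaged 388.6 ± 15.9 CPM in H2BE+BDNF, 331.9 ± 10.1 CPM in H2BE, 415.8 ± 28.2 CPM in BDNF and 334.3 ± 6.98 CPM in Control cultures.

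In H2BE+BDNF against H2BE edgeR called 13.4% of all genes upward, and the median of the 27 was 0.17. Of the 27, 8 rose and 0 fell, or 6 and 0 with DESeq2. They include Vcp (0.27 ± 0.05 (SE), adjusted p = 0.00136), the ubiquitin fusion gene Rps27a (0.35 ± 0.07, adjusted p = 0.00145), the core maturation factor Pomp (0.35 ± 0.07, adjusted p = 0.00154) and the shuttle factor Rad23b (0.26 ± 0.05, adjusted p = 0.00203). Sem1, a small lid subunit whose symbol lies outside the Psm pattern and which was chosen after its values were seen, rose as well (0.36 ± 0.09, adjusted p = 0.00694). Vcp, Rad23b, Ubqln1 and Nfe2l1 rose in both. In H2BE against Control, in H2BE+BDNF against BDNF and for the difference, edgeR called 0 of the 27 in either direction, and DESeq2 called 0 too, giving no adjusted p to 6, 9 and 9 of them. At an unadjusted p under 0.05 there were 0 higher and 3 lower in H2BE against Control, 1 higher and 3 lower in H2BE+BDNF against BDNF, and 4 above and 2 below 0 for the difference. The counts over all genes at this threshold are given above with each comparison.

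Of 10 genes of antigen presentation, which the immunoproteasome serves, 8 were tested. B2m, the light chain of class I molecules, averaged 31.1 ± 0.961 CPM in H2BE+BDNF, 13.5 ± 1.12 CPM in H2BE, 32.5 ± 2.19 CPM in BDNF and 14.01 ± 1.14 CPM in Control cultures. It rose with BDNF under both viruses, by 1.27 ± 0.12 (SE, adjusted p = 5.52e-07) under the control virus and 1.21 ± 0.13 (adjusted p = 5.61e-06) under the H2BE virus. In BDNF against Control, H2-K1 also passed upward (0.83) and Tapbp, a loading factor, downward (−0.42) with edgeR, but neither passed with DESeq2, which called B2m alone. H2-K1 was at 0.41 and Tapbp at −0.26 in H2BE+BDNF against H2BE, where neither passed, and neither passed the test of the difference between the responses (adjusted p = 0.573 and 0.752). The inducible subunits Psmb8 and Psmb9 stayed at the low counts given above.

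Some markers of other cells were higher with BDNF. The summed level of the 12 microglia markers was 23.7 to 26.3 CPM in H2BE+BDNF, 5.94 to 9.73 in H2BE, 26.8 to 28.9 in BDNF and 13.8 to 15.4 in Control libraries. Cd68, a lysosomal protein of microglia, rose in both BDNF comparisons and was at 18.6 ± 0.960 CPM in H2BE+BDNF, 3.52 ± 0.210 in H2BE, 17.8 ± 0.955 in BDNF and 4.86 ± 0.467 in Control cultures, while Tmem119 was at 0 in all but 1 library and P2ry12 stayed below 0.25 CPM as a group mean. Without Cd68 the other 11 markers sum to 5.77 to 7.05 CPM in H2BE+BDNF, 2.58 to 6.06 in H2BE, 10.1 to 10.5 in BDNF and 9.24 to 10.2 in Control libraries, so Cd68 made up most of the difference in the sum. Of the 5 microglia markers tested, Cd68 alone passed in BDNF against Control, and Cd68 and Aif1 rose in H2BE+BDNF against H2BE. The 5 progenitor markers sum to 31.5 to 35.7 CPM in H2BE+BDNF, 23.5 to 30.1 in H2BE, 35.9 to 39.2 in BDNF and 26.3 to 34.2 in Control libraries. In BDNF against Control 3 of these 5 passed upward, where 16.8% of all genes did. In H2BE+BDNF against H2BE 1 of the 5 passed upward, where 13.4% of all genes did, and 0 fell in either comparison. The 6 markers of the oligodendrocyte lineage sum to 81.5 to 84.9, 44.0 to 48.8, 73.7 to 80.2 and 40.4 to 43.4 CPM in the 4 groups, in the same order. Mbp, a myelin protein, was the only one called, upward under both viruses, and without it the other 5 sum to 21.4 to 23.2, 19.4 to 23.0, 22.2 to 27.5 and 20.6 to 23.9 CPM. The 5 astrocyte markers sum to 49.7 to 51.1 CPM in H2BE+BDNF, 60.4 to 63.4 in H2BE, 55.0 to 90.1 in BDNF and 61.2 to 71.5 in Control libraries, and the 5 fibroblast and mural markers to 53.6 to 56.2, 58.1 to 71.5, 43.1 to 53.1 and 57.0 to 63.8 CPM. Of these, Aqp4 fell and Rgs5 rose in H2BE+BDNF against H2BE, and Dcn fell in both BDNF comparisons. The 4 endothelial markers sum to below 4 CPM in every library. The part of these cells in the proteasome values was not tested.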

How the data were processed

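PolyA RNA of 10 libraries was compared. The authors deposited raw counts for 48526 genes, which were used for every test, and normalized counts, a signal in which each library's counts are divided by 1 size factor, which were used only for symbols. Per the submitters' processing notes the build is mm10 and SAMtools, DESeq2 and deepTools were used; aligner, counter, annotation and strand setting: not given in the sources used here. Symbols exist for the 21862 genes of the normalized table.

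Genes were filtered with filterByExpr (minimum count 10, minimum total 15; 13452 kept, with 99.78% of counts), scaled by TMM and tested by quasi-likelihood in edgeR (4.0.16, with limma 3.58.1 under R 4.3.3; a mean per group, 8 distinct libraries, 4 residual degrees of freedom). A gene is called when its Benjamini-Hochberg adjusted p within a comparison is under 0.05; adjusted p-values come from this test unless DESeq2 (1.42.0) is named, and ± after a log2 fold change is its SE. The difference of the responses is the BDNF effect under the H2BE virus minus that under the control virus. Shares of all genes called come from edgeR without the correction, and those of DESeq2 and the other alternatives are not given. For means and SD the nested replicate 3 was averaged with replicate 1.

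Levels per kilobase use the longest APPRIS principal transcript of GENCODE M21, which also gives coordinates (GRCm38, that is mm10) and lengths. The correction fitted lowess curves (span 0.3) on length and GC content. Promoters are RefSeq's (GRCm38.p6). Members named with each library's value are up to 6 called members per comparison with the smallest adjusted p, the catalytic pairs, activators, inhibitor, and the highest and lowest core and regulatory genes; Psmd12 is added for its promoter. Members and lists were chosen with earlier results of these data known. The fit was tested on simulated data. Alternatives were DESeq2 size factors and its Wald test, no filter, all 10 libraries, replicate 3 in place of replicate 1, replicate blocks, the correction, and each library left out. No protein sequences were used here.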

Additional observations from a re-analysis of the deposited data

Results flagged for a closer look

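In 3 members the BDNF responses under the 2 viruses differed by the test of the difference itself. The response under the H2BE virus exceeded that under the control virus by 0.52 on the log2 scale for Psma6 (edgeR adjusted p = 0.0444), by 0.46 for Psmd13 (adjusted p = 0.0431) and by 0.39 for Psma1 (adjusted p = 0.0485). In Psma6 and Psma1 both H2BE+BDNF libraries lay above both H2BE libraries, and the BDNF libraries lay below the Control libraries. In Psmd13 the H2BE+BDNF libraries lay above the H2BE libraries, and BDNF and Control libraries overlapped. None of the 3 passed with the correction for length and GC content.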

How the results depend on the processing

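No called value changed its sign. Calls were kept in all 16 alternatives for 3 of 11 members in BDNF against Control, 15 of 31 in H2BE+BDNF against H2BE, 0 of 3 in H2BE against Control and 0 of 3 for the difference. Counts of Psmb8, Psmb9, Psmb11 and Psme2b were too low to test. For BDNF against Control the count upward was 5 with DESeq2's Wald test and 13 with the length and GC correction, the count downward 9 with all 10 libraries and 5 with replicate 3 in place of replicate 1, and the median 0.0944 with the correction and −0.0307 with the replicate 3 libraries. For H2BE against Control the count downward was 5 without a filter, 15 with all 10 libraries and 0 with the correction, and the median −0.1022 with the correction. The median for H2BE+BDNF against BDNF was 0.088 with the replicate 3 libraries. For the difference the count upward was 17 with all 10 libraries, 9 with the replicate 3 libraries and 0 with the correction, and the median 0.3026 with the replicate 3 libraries and 0.1704 with the correction. Counting all 10 libraries treats nested ones as independent; the cause of the other changes was not tested.

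With 1 library left out, the counts upward ranged from 2 to 8 for BDNF against Control, 15 to 32 for H2BE+BDNF against H2BE, 0 to 3 for H2BE+BDNF against BDNF and 0 to 12 for the difference. The counts downward ranged from 1 to 3 for BDNF against Control and 0 to 7 for H2BE against Control. The medians ranged from −0.0263 to 0.0969, 0.2429 to 0.3247, 0.0317 to 0.1123 and 0.187 to 0.2744 in the order of the upward counts, and from −0.2006 to −0.1367 for H2BE against Control. A lone sample left in a group is assumed to vary like the other groups.

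Libraries with the same number did not deviate together (correlations −0.299 to −0.170), so the numbers do not show a pairing. With the replicate number as a block 7 members rose and 3 fell for BDNF against Control, 30 rose for H2BE+BDNF against H2BE, 0 fell for H2BE against Control and 3 passed for the difference. A crossed pairing block, chosen after seeing the data, gave 13, 31, 0 and 0 calls.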
